A study of Mus musculus with 12 samples.

Results

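The 10 genes of collagen folding, hydroxylation and crosslinking examined here were followed across 2 mouse sarcomas and 2 normal tissues: the chaperone Serpinh1, the prolyl 4-hydroxylase subunits P4ha1, P4ha2 and P4ha3, the lysyl hydroxylases Plod1, Plod2 and Plod3, and the lysyl oxidases Lox, Loxl1 and Loxl2. They were chosen by gene symbol, and all array probes annotated to those symbols were read. Of the 10 genes, 9 had a probe in the annotation used here, with 17 probes among the 45281 of the array. Loxl2 had none and was not analysed here. Of those 9 genes, 8 passed the detection filter and entered the test with 11754 genes in all. P4ha3 did not, because its only probe was detected on none of the 12 arrays (lowest detection p 0.134, highest signal 12.9).

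The samples were 4 osteosarcomas, a malignant tumour of bone, 4 leiomyosarcomas, a malignant tumour named for smooth muscle, 2 normal bone marrows and 2 normal muscles, measured on one-colour Illumina bead arrays. All 12 samples, normal tissue included, carry the genotype label p53 flow/flox, spelled as given. Per the labels the animals are transgenic mice with a p53 mutation that were watched until a tumour or limb paralysis appeared. No strain, age, sex, promoter or recombinase is given in the labels, so the cells in which p53 was altered are not known here. Separate animals are not stated for every sample, and bone marrow 2 and muscle 1 carry 1 animal code, so a p-value covers no more than the spread among the samples at hand. The series compared tumour with normal tissue.

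On each array 31.3% to 40.0% of probes were detected. Correlations between replicates, taken over genes that are not independent of each other, were 0.916 to 0.956 in osteosarcoma, 0.946 to 0.974 in leiomyosarcoma, 0.983 in bone marrow and 0.935 in muscle. With so few arrays no value is precise. The background constant was 99.3 to 110.1 on all osteosarcomas and leiomyosarcomas 3 and 4, against 80.8 to 84.2 on leiomyosarcomas 1 and 2 and both normal tissues, so background level and tissue are partly confounded. Of 6 osteoblast markers with a probe, 5 or 6 were detected in each osteosarcoma, all 7 skeletal fibre markers in both muscles and all 8 neutrophil markers in both marrows. The smooth muscle markers gave the leiomyosarcoma label no such support. Of 6 markers 3 or 4 were detected per leiomyosarcoma, with Myh11 and Cnn1 detected in none, and 3 to 5 per osteosarcoma. Their summed signal was 4366 to 30994 in leiomyosarcoma and 4179 to 28390 in osteosarcoma. In limma 0 of the 6 were called higher in leiomyosarcoma than in muscle, marrow or osteosarcoma, at the threshold given below. Against muscle 2 were called lower. Osteosarcoma 1 also had a summed skeletal fibre marker signal of 50526, against 64 to 4379 in osteosarcomas 2, 3 and 4.

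Collagen is made in the endoplasmic reticulum as chains that are modified before they fold. Prolyl 4-hydroxylase makes the hydroxyproline that keeps the triple helix stable, lysyl hydroxylases mark lysines for sugars and crosslinks, and the chaperone HSP47, encoded by Serpinh1, binds the folded helix. After secretion, lysyl oxidases oxidise lysine and hydroxylysine so that neighbouring molecules become covalently joined, which gives bone and scar their strength.

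Most of these genes were higher in tumour than in normal tissue. On the brightest probe of each gene, all 8 had a positive difference in each of the 4 tumour against normal contrasts. A gene was called when its difference in normalised log2 signal was at least 1 with a Benjamini-Hochberg adjusted p under 0.05 in limma, over all genes tested. In osteosarcoma against bone marrow 7 of the 8 genes were called higher, where 14.8% of all genes were called higher and 13% lower. In leiomyosarcoma against bone marrow it was also 7 of 8, with 15.2% of all genes higher and 12.7% lower. Osteosarcoma against muscle gave 6 of 8, with 18.5% of all genes higher and 14.5% lower. Leiomyosarcoma against muscle gave 5 of 8, with 20.1% of all genes higher and 15.1% lower. Both counts against muscle include Plod3 on its brighter probe. Its other probe was called lower against muscle, at −3.03 in osteosarcoma and −2.70 in leiomyosarcoma. Serpinh1, Plod1, Plod2 and Lox were called higher in all 4 of these contrasts, as were 3.89% of all genes, while 1.08% of all genes were lower in all 4. The median difference of the 8 genes was 4.74 in osteosarcoma against marrow, 3.93 in leiomyosarcoma against marrow, 2.42 in osteosarcoma against muscle and 2.02 in leiomyosarcoma against muscle, where the medians over all genes lay between 0 and 0.08. The contrasts share samples and are not independent of each other. The number of genes called in all 4 contrasts ranged from 1 (without muscle 2) to 5 (without osteosarcoma 2) when single arrays were left out, and was 1 with the background level as a block. For leiomyosarcoma against muscle the count was 2 without muscle 2 and 3 without muscle 1, leiomyosarcoma 1 or leiomyosarcoma 4, and for osteosarcoma against marrow it was 4 with the background block. Fewer cells of a type and less RNA per cell cannot be told apart in these bulk samples.

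**Figure D1:**
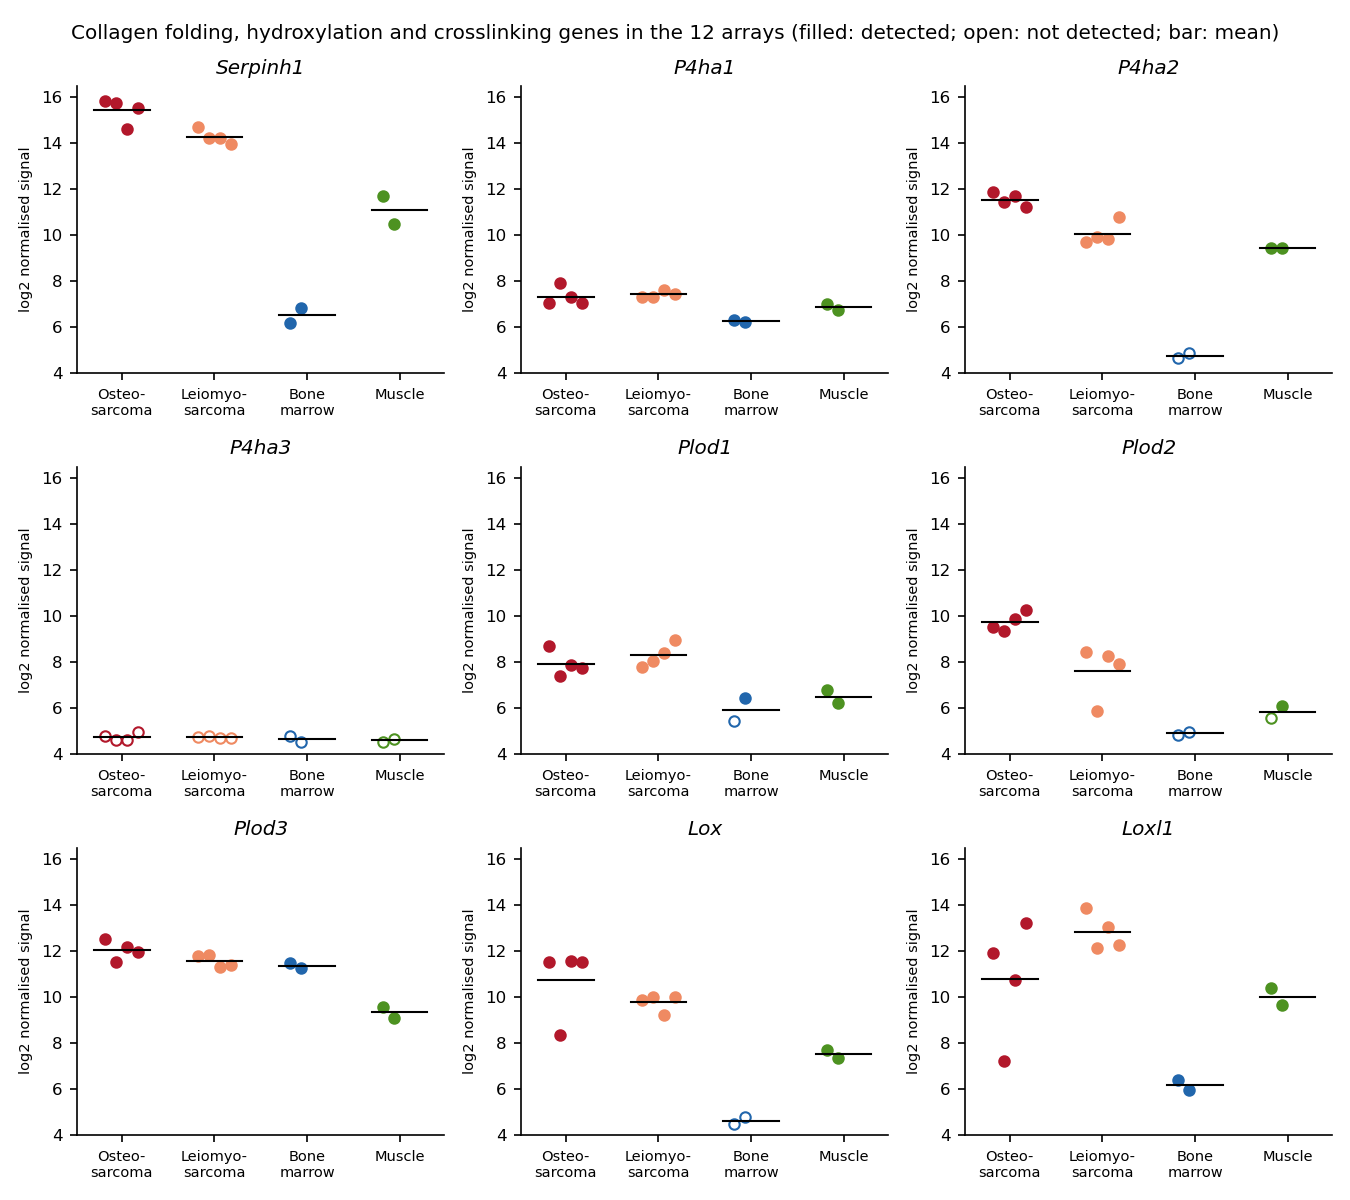
Normalised log2 signal of 9 genes in each of the 12 samples, with osteosarcoma, leiomyosarcoma, bone marrow and muscle from left to right in each panel; filled points are detected samples, open points are not detected, and bars are group means. Serpinh1 stands highest in osteosarcoma (mean 15.44) and lowest in bone marrow (mean 6.52), osteosarcoma 2 lies apart for Lox (8.36) and Loxl1 (7.22), and all points of P4ha3 are open.

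Serpinh1, the collagen-specific chaperone, was far above both normal tissues in every tumour. Its deposited background-subtracted signal, in arbitrary scanner units, was 59255, 50559, 23932 and 44878 in osteosarcomas 1 to 4 and 21627, 18319, 26085 and 19244 in leiomyosarcomas 1 to 4. It was 38.3 and 60.9 in the marrows and 2498 and 970 in the muscles. Every tumour stood above every normal sample, and only osteosarcoma 3 fell inside the leiomyosarcoma range. The signal in osteosarcoma 1 reached 97.2% of the highest signal on its array, and whether the scanner saturated is not known.

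On the normalised log2 scale Serpinh1 averaged 15.44 ± 0.57 in osteosarcoma and 14.30 ± 0.31 in leiomyosarcoma (SD, n = 4 each), against 6.52 ± 0.46 in marrow and 11.08 ± 0.87 in muscle (SD, n = 2 each). The difference was 8.92 ± 0.41 (SE) for osteosarcoma against marrow (limma adjusted p = 1.93e-08) and 3.22 ± 0.41 for leiomyosarcoma against muscle (limma adjusted p = 7.22e-05). Crosswise it was 4.36 ± 0.41 for osteosarcoma against muscle (limma adjusted p = 1.04e-05) and 7.79 ± 0.41 for leiomyosarcoma against marrow (limma adjusted p = 6.69e-08). Serpinh1 was the only gene of the 8 for which all neighbours in the order osteosarcoma, leiomyosarcoma, muscle, marrow differed past the threshold. The step between the tumours was the least firm, at 1.14 ± 0.33 with a limma adjusted p of 0.0472, and it was lost with the background block (1.32, adjusted p = 0.0936), within the arrays of higher background (1.32, adjusted p = 0.102), without the detection filter (adjusted p = 0.0839), with the replicate block (adjusted p = 0.0571) and without any 1 array other than muscle 1, muscle 2 or osteosarcoma 3 (adjusted p = 0.0546 to 0.119). The size against muscle depended on single muscle arrays: leiomyosarcoma against muscle was 3.83 without muscle 1 and 2.60 without muscle 2.

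A second Serpinh1 probe had the same order of groups. It read 5692, 4082, 1714 and 3402 in the osteosarcomas, 1290, 1129, 1637 and 1409 in the leiomyosarcomas, and 101 and 31.5 in the muscles. It was not detected in marrow. Fitted on its own it gave 1.45 between the tumours (limma adjusted p = 0.0181) and 3.28 for leiomyosarcoma against muscle (limma adjusted p = 6.24e-05), so both probes placed the tumours in the same order.

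The promoters of 6 of the 10 genes were in the RefSeq promoter table (GRCm38.p6), and 3 are shown because Serpinh1 and P4ha2 had the largest differences of osteosarcoma from marrow (fitted log2 values of 8.92 and 6.79) and P4ha1, the other measured prolyl 4-hydroxylase subunit, one of 1.06. Each line gives the 250 bases before the annotated start on the gene's own strand, 5′ to 3′: Serpinh1 at chr7:99353240-99353489 (minus strand), P4ha2 at chr11:54100674-54100923 (plus strand) and P4ha1 at chr10:59323046-59323295 (plus strand). Capitals mark the 5 letters ACGTG or, read from the other strand, CACGT, a form of the core recognised by hypoxia-inducible factors. The form GCGTG was not searched.
Serpinh1: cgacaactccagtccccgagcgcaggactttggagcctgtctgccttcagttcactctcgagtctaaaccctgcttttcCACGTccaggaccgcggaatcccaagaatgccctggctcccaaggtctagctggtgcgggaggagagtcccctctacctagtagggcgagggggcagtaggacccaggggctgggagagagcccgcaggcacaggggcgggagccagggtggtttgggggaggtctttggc
P4ha2: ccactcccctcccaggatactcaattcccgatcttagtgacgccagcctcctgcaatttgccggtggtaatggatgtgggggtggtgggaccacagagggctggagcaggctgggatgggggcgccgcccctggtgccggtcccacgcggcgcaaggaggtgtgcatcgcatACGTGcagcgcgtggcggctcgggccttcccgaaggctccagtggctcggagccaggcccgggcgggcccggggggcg
P4ha1: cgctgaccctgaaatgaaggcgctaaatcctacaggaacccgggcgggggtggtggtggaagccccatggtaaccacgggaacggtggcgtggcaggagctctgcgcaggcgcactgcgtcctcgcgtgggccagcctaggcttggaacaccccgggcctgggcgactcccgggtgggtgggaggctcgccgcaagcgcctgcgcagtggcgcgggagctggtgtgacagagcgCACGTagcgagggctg
The marked letters began 171 bases before the start in Serpinh1, 78 in P4ha2, 16 in P4ha1 and 54 in Plod3. The windows of Plod1 and P4ha3 held neither ACGTG nor CACGT. This form of the core stood thus in 4 of 6 promoters, and in 16.6% of the 32851 promoters in the table. The GC box GGGCGG, searched on both strands, was in 5 of 6 and in 32.7% of all. The CCAAT box, searched on both strands, was in 1 of 6 and in 33.8% of all. The letters TATAAA, searched on both strands, were in 1 of 6 and in 12.4% of all. GAANNTTC, the core of a heat shock element, was in none of the 6 and in 6.69% of all. No other motif searched overlapped the marked letters. The 6 windows held 55.6% to 70.0% C or G, and the shares over all promoters were not matched for base content. A match is a description of letters and no measurement of binding.

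Among the prolyl 4-hydroxylase alpha subunits, which hold the catalytic site of the enzyme, P4ha2 was called in 3 of the 4 tumour against normal contrasts and between the tumours, and P4ha1 only in the 2 contrasts with marrow. The signal of P4ha2 was 4358, 3378, 3000 and 2249 in the osteosarcomas and 774, 900, 1367 and 2334 in the leiomyosarcomas. It was −1.81 and 5.98 in the marrows, where it was not detected, and 411 and 425 in the muscles. All tumours were above both muscles, and leiomyosarcoma 4 reached into the osteosarcoma range on this scale but not after normalisation (10.80, against 11.22 in the lowest osteosarcoma).

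P4ha2 averaged 11.55 ± 0.29 in osteosarcoma and 10.07 ± 0.49 in leiomyosarcoma (SD, n = 4 each), against 9.44 ± 0.02 in muscle (SD, n = 2). It was at least 67.5-fold higher in osteosarcoma than in marrow (limma adjusted p = 1.53e-08) and at least 24.2-fold higher in leiomyosarcoma than in marrow (limma adjusted p = 1.14e-07). Here and below such a bound sets a group's mean against the lowest signal that was still detected on each array of the other group. The bound holds for the probe used and the main background correction alone, and the adjusted p beside it belongs to the fitted difference. For osteosarcoma against marrow the fitted P4ha2 difference was 6.79, with 4.72 on another kept probe and 4.99 without background subtraction. Against muscle the difference was 2.11 ± 0.30 in osteosarcoma (limma adjusted p = 0.000171) and 0.63 ± 0.30 in leiomyosarcoma (limma adjusted p = 0.103), and between the tumours it was 1.48 ± 0.24 (limma adjusted p = 0.00293). The last was not called within the arrays of higher background (1.23, adjusted p = 0.086). A second probe of P4ha2 gave 1.62 for osteosarcoma against muscle and 1.08 between the tumours (limma adjusted p = 0.0199), both called, while the remaining one, designed from a cDNA clone, was detected on no array.

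The signal of P4ha1 was 151, 295, 150 and 122 in the osteosarcomas, 146, 138, 284 and 222 in the leiomyosarcomas, 42.4 and 35.4 in the marrows and 59.7 and 47.6 in the muscles. All 8 tumours were above all 4 normal samples, and the tumours overlapped fully with each other. The difference was 1.06 ± 0.26 for osteosarcoma against marrow (limma adjusted p = 0.00675) and 1.17 ± 0.26 for leiomyosarcoma against marrow (limma adjusted p = 0.004). Against muscle it was 0.45 in osteosarcoma and 0.56 in leiomyosarcoma and was not called in either (limma adjusted p = 0.175 and 0.0973). The call in osteosarcoma against marrow was close to the minimum difference of 1, and with the background block it was lost (0.84, adjusted p = 0.179). Both calls were lost when the deposited values without background subtraction were used, at 0.63 in osteosarcoma and 0.69 in leiomyosarcoma. The second probe of P4ha1 gave 1.59 against marrow in osteosarcoma and 0.04 for leiomyosarcoma against muscle (limma adjusted p = 0.931). On that probe muscle 2 (6.76 after normalisation) lay within the range of the tumours (6.27 to 6.93). On the normalised scale the separation of tumours from muscle thus held for the brighter probe alone. In the annotation the brighter probe has a cDNA clone record and the second a RefSeq transcript.

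Of the lysyl hydroxylases, Plod1, which hydroxylates lysines of the triple helix, was higher in both tumours than in both normal tissues. It had signals of 504, 195, 228 and 212 in the osteosarcomas and 208, 239, 490 and 659 in the leiomyosarcomas. The marrows had 19.0, not detected, and 42.3, and the muscles 51.1 and 30.6. No tumour overlapped with a normal sample, and the tumours overlapped with each other. The difference was 2.01 ± 0.42 for osteosarcoma against marrow (limma adjusted p = 0.00278) and 1.80 ± 0.42 for leiomyosarcoma against muscle (limma adjusted p = 0.00418). The first call was lost without marrow 1 (adjusted p = 0.0584) and with the background block (1.27, adjusted p = 0.178), and the second without muscle 2 (1.52, adjusted p = 0.0518). For osteosarcoma against muscle, 1.43 ± 0.42 (limma adjusted p = 0.0161), the value was 0.69 with the background block (adjusted p = 0.445).

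Plod2, the enzyme that hydroxylates lysines of the collagen telopeptides and so sets the type of crosslink, was highest in osteosarcoma. Its signal was 887, 847, 932 and 1205 in the osteosarcomas and 318, 42.4, 442 and 320 in the leiomyosarcomas, against 5.52 and 8.34 in the marrows, not detected, and 19.6, not detected, and 27.6 in the muscles. The 4 osteosarcomas were above all other samples, and after normalisation leiomyosarcoma 2 (5.86) fell between the muscles (5.58 and 6.09). Plod2 was at least 19.7-fold higher in osteosarcoma than in marrow (limma adjusted p = 4.74e-05), and 3.94 ± 0.58 higher on the log2 scale than in muscle (limma adjusted p = 0.000239). It was 2.15 ± 0.48 higher in osteosarcoma than in leiomyosarcoma (limma adjusted p = 0.0142), which was not called with the background block (1.68, adjusted p = 0.109).

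In leiomyosarcoma Plod2 was at least 4.42-fold higher than in marrow (limma adjusted p = 0.00342) and 1.78 ± 0.58 higher than in muscle (limma adjusted p = 0.0258). The comparison with muscle was 2.37 without leiomyosarcoma 2 and lost its call with the background block (1.31, adjusted p = 0.135) and without muscle 1 (adjusted p = 0.149). A second Plod2 probe gave 102 in leiomyosarcoma 2, against 172, 285 and 343 in the other leiomyosarcomas, so that tumour was again the lowest but not down at the muscle signals of 12.2 and 24.5. On that probe leiomyosarcoma against muscle was 1.98 (limma adjusted p = 0.00122) and osteosarcoma against leiomyosarcoma 2.11 (limma adjusted p = 0.00144). The remaining Plod2 probe was detected on no array.

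**Figure D2:**
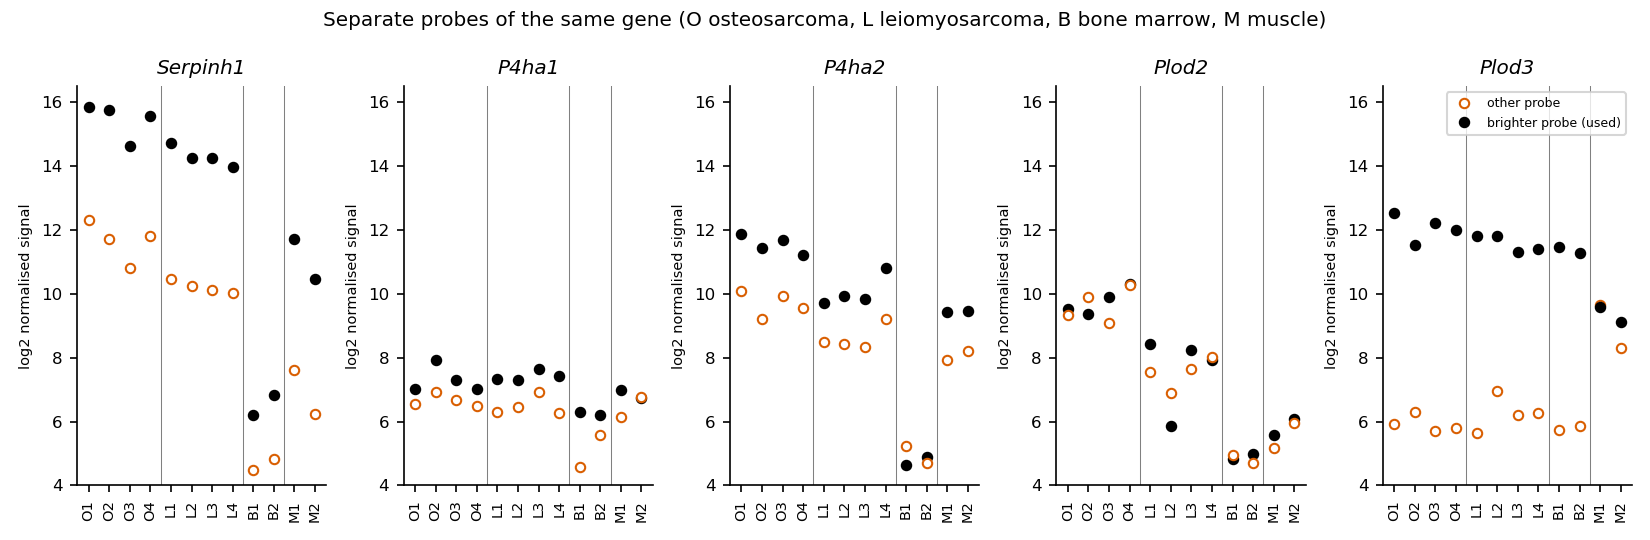
Normalised log2 signal of both kept probes of 5 genes on each array, with samples along the horizontal axis (O osteosarcoma, L leiomyosarcoma, B bone marrow, M muscle) and signal on the vertical axis; filled points are the brighter probe used and open points the other. The probes of Serpinh1 and Plod2 order the group means alike, whereas the muscles are lowest on the brighter Plod3 probe (9.57 and 9.11) and highest on the other (9.66 and 8.29).

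Plod3, which besides hydroxylating lysine can attach the sugars to hydroxylysine, was the only one of the 8 called higher in marrow than in muscle. Its brighter probe read 6550, 3643, 4387 and 3955 in the osteosarcomas and 3202, 3319, 3726 and 3423 in the leiomyosarcomas, against 2321 and 1977 in the marrows and 460 and 322 in the muscles. Muscle stood apart below all other samples. Plod3 was 2.73 ± 0.28 higher in osteosarcoma than in muscle (limma adjusted p = 1.94e-05) and 2.24 ± 0.28 higher in leiomyosarcoma than in muscle (limma adjusted p = 6.62e-05). Against marrow it was not called, at 0.69 ± 0.28 in osteosarcoma (limma adjusted p = 0.0754) and 0.21 ± 0.28 in leiomyosarcoma (limma adjusted p = 0.613). The second Plod3 probe, for which the annotation gives no transcript record, showed the reverse for muscle: 59.3, 78.7, 39.7 and 41.9 in the osteosarcomas and 34.8, 107, 92.4 and 87.4 in the leiomyosarcomas, against 26.1 and 26.1 in the marrows and 493 and 167 in the muscles. On that probe osteosarcoma against muscle was −3.03 (limma adjusted p = 8.74e-05) and leiomyosarcoma against muscle −2.70 (limma adjusted p = 0.000181). Every statement on Plod3 and muscle therefore holds for the brighter probe alone, and which transcript the other reads was not tested.

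Lox, the founding lysyl oxidase, was higher in both tumours than in both normal tissues, with 1 osteosarcoma far below the other 3. Its signal was 3439, 412, 2775 and 2828 in the osteosarcomas and 868, 953, 881 and 1393 in the leiomyosarcomas, against −11.4 and 3.20 in the marrows, not detected, and 108 and 79.0 in the muscles. Every tumour was above every normal sample, and osteosarcoma 2 was below every leiomyosarcoma. Lox was at least 38.8-fold higher in osteosarcoma than in marrow (limma adjusted p = 5.25e-05) and at least 19.8-fold higher in leiomyosarcoma than in marrow (limma adjusted p = 0.000217). Against muscle it was 3.22 ± 0.74 higher in osteosarcoma (limma adjusted p = 0.00441) and 2.24 ± 0.74 higher in leiomyosarcoma (limma adjusted p = 0.0275). With the background block those 2 calls missed the threshold, at 3.55 (adjusted p = 0.0544) and 2.41 (adjusted p = 0.0553), and the leiomyosarcoma call was also lost without muscle 1 (adjusted p = 0.0845) or muscle 2 (adjusted p = 0.133).

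Loxl1, a lysyl oxidase best known for its role in elastic fibres, had its highest mean in leiomyosarcoma (12.84 ± 0.80, SD, n = 4) and spread widely in osteosarcoma (10.79 ± 2.59, SD, n = 4). Its signal was 4475, 171, 1653 and 9186 in the osteosarcomas and 11957, 4229, 11673 and 6186 in the leiomyosarcomas, against 45.1 and 28.4 in the marrows and 877 and 502 in the muscles. All leiomyosarcomas were above both muscles, and the osteosarcomas lay on both sides of the muscles. Loxl1 was 4.62 ± 1.21 higher in osteosarcoma than in marrow (limma adjusted p = 0.0106) and 6.68 ± 1.21 higher in leiomyosarcoma than in marrow (limma adjusted p = 0.00109). The osteosarcoma value was 5.81 without osteosarcoma 2, 3.80 without osteosarcoma 4, and not called with the background block (4.98, adjusted p = 0.105) or without either marrow (adjusted p = 0.0575 and 0.0851). Leiomyosarcoma against muscle was 2.81 ± 1.21 and not called (limma adjusted p = 0.0766), with a standard error that holds the osteosarcoma spread. With only the leiomyosarcoma and muscle arrays in the fit it was called (adjusted p = 0.00337), as it was without osteosarcoma 2 (adjusted p = 0.00367). Osteosarcoma against muscle was 0.76 ± 1.21 (limma adjusted p = 0.645), 1.95 without osteosarcoma 2 (adjusted p = 0.0348) and −0.06 without osteosarcoma 4. The second Loxl1 probe was detected in 1 leiomyosarcoma and in no other sample.

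Osteosarcoma 2 had the lowest Lox and Loxl1 of the osteosarcomas. Against the mean of osteosarcomas 1, 3 and 4 it was 3.20 lower in log2 signal for Lox (8.36, against 11.55) and 4.76 lower for Loxl1 (7.22, against 11.98). A difference as low as that of Lox or lower was found in 0.613% of all genes in that tumour, and one as low as that of Loxl1 in 0.0851%. The other 6 genes were within 0.81 of that mean, with Serpinh1 at 0.41, P4ha1 at 0.81, P4ha2 at −0.16, Plod2 at −0.54, Plod3 at −0.70 and Plod1 at −0.74. Col1a1 and Col1a2, the chains of type I collagen, were 0.52 and 0.79 above it. Col3a1, the chain of type III collagen, was at −3.72, and a difference as low or lower was found in 0.408% of all genes. Of the remaining fibrillar collagens, Col5a3 was at −0.99, Col2a1 at −0.82 and Col5a1 at −0.42. Col5a2, Col11a1 and Col11a2 were at 0.08, 0.16 and 0.31. Without osteosarcoma 2, Lox was 1.77 higher in osteosarcoma than in leiomyosarcoma and called (adjusted p = 0.000854). The summed fibroblast marker signal of osteosarcoma 2 was 22763, against 12217, 3876 and 8180 in osteosarcomas 1, 3 and 4, and its osteoblast marker signal 71373, against 68652, 34720 and 45347. The mean log2 signal of the fibroblast markers was instead lowest there, at 9.08, against 10.29, 9.11 and 10.10, and that of the osteoblast markers was 10.96, against 12.06, 10.81 and 10.82. The part of cell mixture in the low oxidase signals was not tested.

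**Figure D3:**
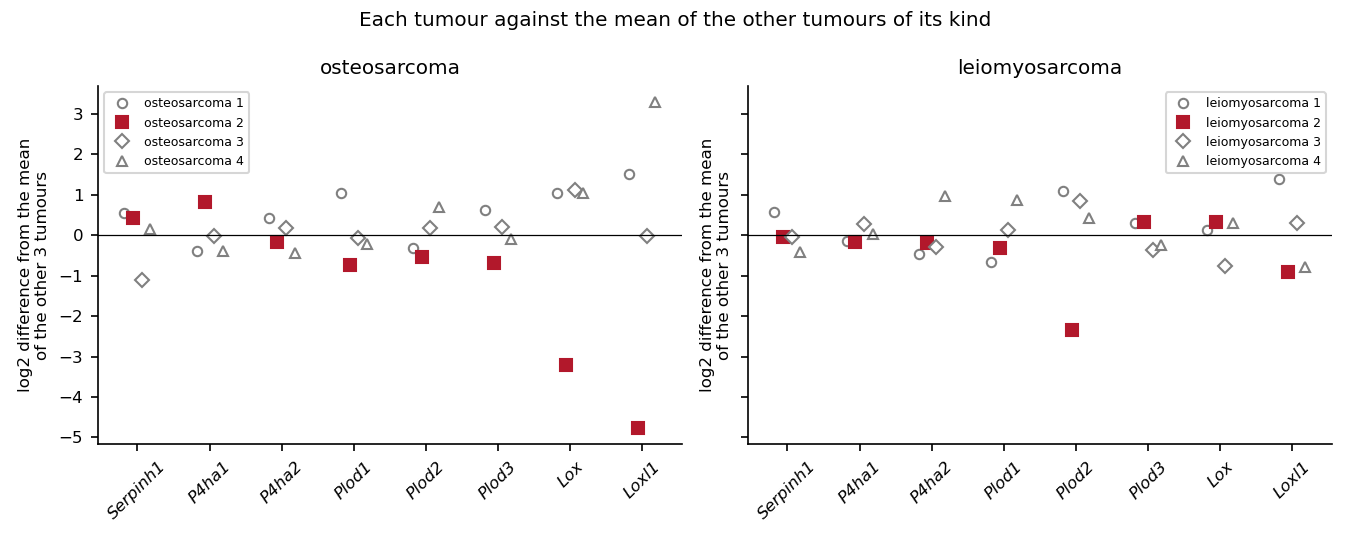
Each tumour's log2 signal minus the mean of the other 3 tumours of its type, for the 8 genes, in osteosarcoma (left) and leiomyosarcoma (right). Osteosarcoma 2 lies 3.20 below for Lox and 4.76 below for Loxl1, osteosarcoma 4 lies 3.28 above for Loxl1, and leiomyosarcoma 2 lies 2.35 below for Plod2.

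Among the leiomyosarcomas the single departure of that size was Plod2 in leiomyosarcoma 2, at −2.35 against the mean of the other 3, and a difference as low or lower was found in 0.306% of all genes in that tumour. Fkbp7, a prolyl isomerase of the endoplasmic reticulum, was −1.22 there and Col5a2, a chain of type V collagen, −1.39, while Col2a1, the cartilage collagen, was 2.59 above. These 3 genes were named after their values were seen.

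Between the tumours, the genes called higher in osteosarcoma than in leiomyosarcoma were Serpinh1, P4ha2 and Plod2, 3 of 8 with 3.31% of all genes, and none was called lower in limma (4.34% of all genes), with 0 also at an unadjusted p under 0.05. Lox (0.97 ± 0.61, limma adjusted p = 0.345), Plod3 (0.48, adjusted p = 0.207), P4ha1 (−0.10, adjusted p = 0.817), Plod1 (−0.38, adjusted p = 0.543) and Loxl1 (−2.06 ± 0.99, adjusted p = 0.211) were not called. The count fell to 1 with the background block, and to 1 within the arrays of higher background, which hold all osteosarcomas and leiomyosarcomas 3 and 4.

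**Figure D4:**
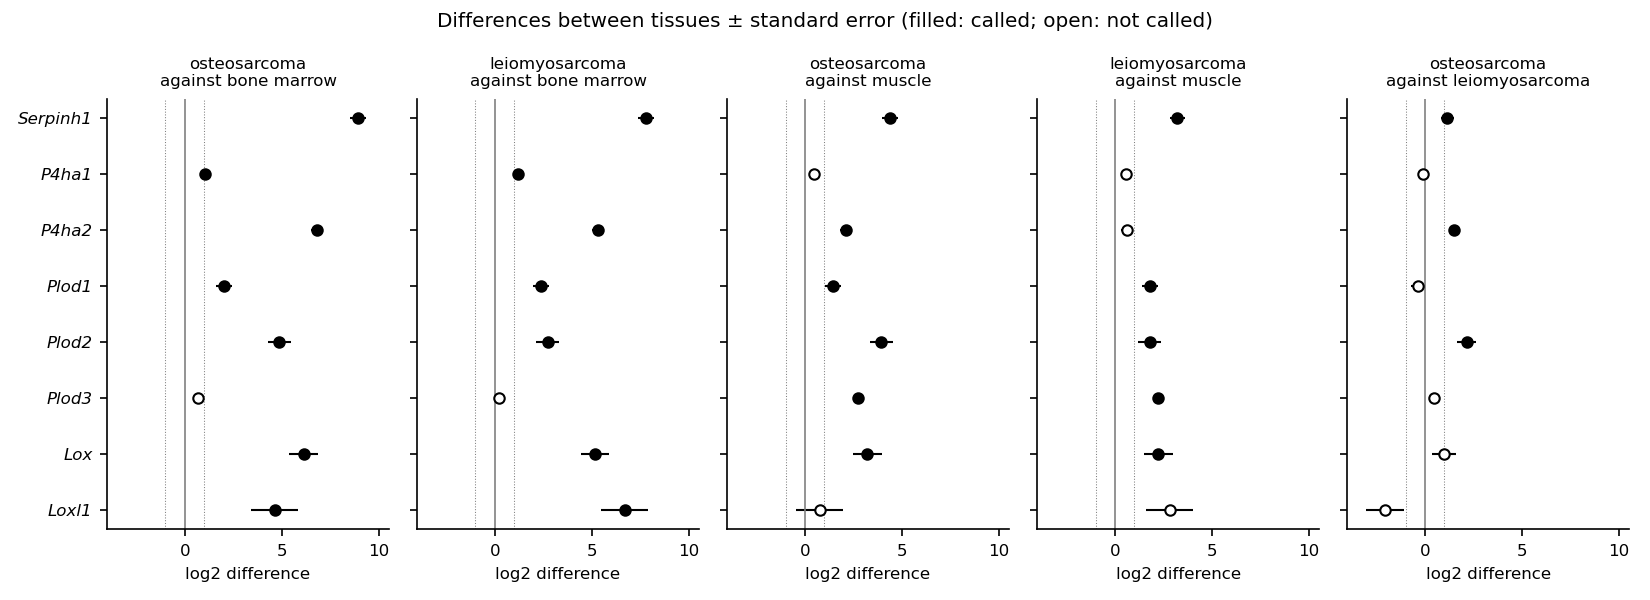
Log2 difference with its standard error for each gene in the tumour against normal contrasts and between the tumours; filled points were called, open ones were not, and dotted lines mark the minimum difference of 1. Serpinh1 has the largest difference in both contrasts with bone marrow (8.92 and 7.79). Plod3, on its brighter probe, is near 0 there (0.21 in leiomyosarcoma) but at 2.24 in leiomyosarcoma against muscle.

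The difference of osteosarcoma from marrow was then compared with that of leiomyosarcoma from muscle. The tissue labels do not say which normal tissue belongs to which tumour. The difference of osteosarcoma against marrow was larger than that of leiomyosarcoma against muscle by 6.16 ± 0.42 for P4ha2 (limma adjusted p = 9.88e-07), 5.71 ± 0.58 for Serpinh1 (adjusted p = 1.44e-05), 3.88 ± 1.05 for Lox (adjusted p = 0.0108) and 3.08 ± 0.83 for Plod2 (adjusted p = 0.0101). For Plod3 it was smaller on the brighter probe, with a value of −1.55 ± 0.40 (adjusted p = 0.00805). The other Plod3 probe was called in the opposite direction, at 2.84 (adjusted p = 0.00149). On the brighter probes, 4 of 8 were called larger, with 19.5% of all genes, and 1 of 8 was called smaller, with 20.8%. The same quantity is, by arithmetic, the difference between the tumours less that between the normal tissues. For Serpinh1 the tumours differed by 1.14 and marrow lay −4.57 ± 0.47 from muscle, and for Plod2 the tumours differed by 2.15 and marrow lay −0.93 from muscle (limma adjusted p = 0.299). P4ha2, Plod2 and Lox were not detected in marrow, and on the values without background subtraction Lox was not called (2.52, adjusted p = 0.0659). For P4ha1 it was 0.51 and not called (limma adjusted p = 0.289), but its second probe gave 1.55 and was called (adjusted p = 0.0127).

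In marrow against muscle itself, 4 of 8 genes were lower, with 19.7% of all genes, and 1 was higher, with 20.3%. The total of 5 fell to 3 without marrow 1, marrow 2 or muscle 1. Serpinh1 (limma adjusted p = 1.15e-05), Lox and Loxl1 were lower in marrow, as was P4ha2, by at least 15.6-fold (limma adjusted p = 9.89e-07). Lox was at least 4.18-fold lower (limma adjusted p = 0.0154) and Loxl1 differed by −3.86 ± 1.40 (limma adjusted p = 0.0404). Both calls were lost with normexp at offset 50 (adjusted p = 0.0967 for Lox and 0.0835 for Loxl1), on the values without background subtraction (0.149 and 0.101) and without marrow 1, marrow 2 or muscle 1. That of Loxl1 was also lost without the detection filter (adjusted p = 0.0863), with the background block (0.0527) and without muscle 2, leiomyosarcoma 3, leiomyosarcoma 4 or osteosarcoma 3. Plod3 was the one gene higher in marrow, by 2.04 ± 0.33 on its brighter probe (limma adjusted p = 0.00031). Its other probe was called in the opposite direction, at −3.17 (limma adjusted p = 0.00013). Plod1, Plod2 and P4ha1 were not called, at −0.58, −0.93 and −0.61, though the second P4ha1 probe gave −1.38 and was called (adjusted p = 0.00686).

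Fibrillar collagens, the substrates, were also called higher in the tumours. Of the 9 fibrillar collagens tested, 6 were higher in osteosarcoma against marrow, 5 in leiomyosarcoma against marrow, 5 in osteosarcoma against muscle, 4 in leiomyosarcoma against muscle and 4 in osteosarcoma against leiomyosarcoma. None was called lower in these contrasts in limma, with 0 also at an unadjusted p under 0.05. Col1a1 was at least 519-fold higher in osteosarcoma than in marrow, and 3.13 ± 0.54 higher in leiomyosarcoma than in muscle (limma adjusted p = 0.000612). Between the tumours Col1a1 was 3.11 ± 0.44 higher in osteosarcoma (limma adjusted p = 0.00117) and Col2a1 3.06 ± 0.54 (limma adjusted p = 0.00431). The median of the list was 4.12 in osteosarcoma against marrow and 1.91 in leiomyosarcoma against muscle, and the medians over all genes were 0.03 and 0.08.

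Of 11 other genes that modify or fold collagen, 10 were higher in osteosarcoma against marrow, 7 in leiomyosarcoma against muscle and 5 in osteosarcoma against leiomyosarcoma. The median of the list was 2.90, 1.90 and 0.62 in these contrasts. P3h1, the prolyl 3-hydroxylase, was 4.01 ± 0.30 higher in osteosarcoma than in marrow (limma adjusted p = 1.06e-06), and P3h4, its relative, at least 13.5-fold higher. Between the tumours P3h4 was 1.79 ± 0.22 higher in osteosarcoma (limma adjusted p = 0.000487) and Crtap, the partner protein of P3h1, 1.52 ± 0.23 (limma adjusted p = 0.00161). Ppib, the cyclophilin of that complex, was 2.51 ± 0.29 higher in leiomyosarcoma than in muscle (limma adjusted p = 3.33e-05). It was also 1.68 ± 0.33 higher in marrow than in muscle (limma adjusted p = 0.00131), and the osteosarcoma difference from marrow was the smaller one, by a value of −1.24 ± 0.40 (limma adjusted p = 0.0273).

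Outside the endoplasmic reticulum, 3 of 8 procollagen processing genes were tested, and Bmp1, the C-propeptidase, and Pcolce, its enhancer, were higher in every tumour against normal contrast. Bmp1 was 7.08 ± 0.48 higher in osteosarcoma than in marrow (limma adjusted p = 5.3e-07) and Pcolce at least 99.2-fold higher. Of the further oxidases, Loxl4 was tested and was 2.18 ± 0.42 higher in osteosarcoma than in marrow (limma adjusted p = 0.00167), with no call in leiomyosarcoma against muscle (0.85).

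Lists of the general secretory machinery were counted in the same way. Of 7 genes of collagen export, 4 were higher in osteosarcoma against marrow and 1 in leiomyosarcoma against muscle, Sec24d, the coat protein of large cargo vesicles, at least 7.78-fold. Of all genes, 14.8% and 20.1% were called higher in these contrasts. Creb3l1, a transcription factor of the secretory pathway in bone, was the one export gene called between the tumours, 2.66 ± 0.20 higher in osteosarcoma (limma adjusted p = 8.48e-06). Of 9 general chaperones of the endoplasmic reticulum, 2 were higher in osteosarcoma against marrow and 5 in leiomyosarcoma against muscle. Pdia3, a disulfide isomerase, was 1.47 ± 0.21 and 2.36 ± 0.21 higher in these contrasts (limma adjusted p = 0.000215 and 7.43e-06). Osteosarcoma against muscle also had 5 of the 9 chaperones higher (median 1.12), with 18.5% of all genes. Leiomyosarcoma against marrow had 3 (median 0.12), with 15.2% of all genes. Marrow itself had 4 higher than muscle (median 1.26), with 20.3% of all genes. Between the tumours 0 of the 9 chaperones were called in limma (1 at an unadjusted p under 0.05), at a median of 0.22, and 3 of the 8 collagen enzyme genes were, at a median of 0.73. The difference between the lists was not tested.

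**Figure D5:**
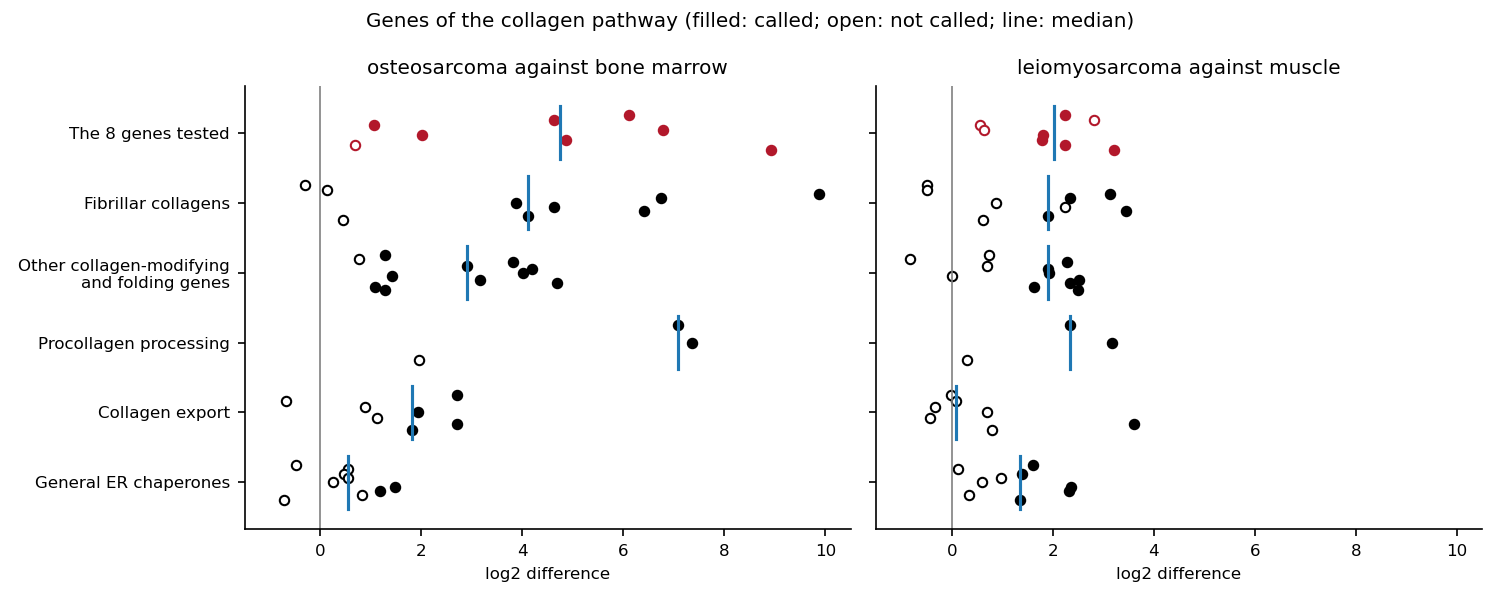
Log2 differences in osteosarcoma against bone marrow (left) and leiomyosarcoma against muscle (right) on the same scale; each point is a gene, filled where called, and blue lines are list medians, with the 8 genes described above in red at the top. The median of those 8 is 4.74 on the left and 2.02 on the right, and that of the general chaperones 0.54 and 1.36.

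Patterns across the 12 arrays were compared with those of all tested genes by the root mean square of the difference between centred log2 signals, as a description. The nearest to Serpinh1 was Sparc, a collagen-binding matrix protein of bone, at 0.44, where the median over all genes was 3.27. P4ha2 was nearest to Pdgfa, a growth factor, at 0.32 and Fkbp9, a prolyl isomerase of the endoplasmic reticulum, at 0.39. Plod2 was nearest to Fkbp7 at 0.52 and Col5a2 at 0.57, and Lox to Gpx7, a peroxidase of the endoplasmic reticulum, at 0.59. Loxl1 was nearest to Col3a1, the chain of type III collagen, at 0.67, and Thbs2 at 0.84. P4ha1 (Hint1, 0.17), Plod1 (Clic4, 0.40) and Plod3 (Ly96, 0.23) were nearest to genes of other kinds, with medians over all genes of 0.75, 1.19 and 1.12. Within the group, P4ha1 and Plod1, which both varied little, were the closest pair at 0.77, with Plod1 at rank 6143 among the genes nearest to P4ha1. P4ha2 and Lox were 1.01 apart, where Lox ranked 40 among the genes nearest to P4ha2 and P4ha2 ranked 34 among those nearest to Lox.

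Cell markers also differed between the tissues. The summed signal of 6 fibroblast markers was 3876 to 22763 in osteosarcoma and 13655 to 24529 in leiomyosarcoma, against 75 to 134 in marrow, where Lum, Pdgfra, Pdgfrb and Fap were detected on no array, and 3982 to 8548 in muscle. The summed signal of 6 osteoblast markers was 34720 to 71373 in osteosarcoma, against 42 to 108 in leiomyosarcoma, 62 to 105 in marrow and 74 to 88 in muscle. Of the 6 fibroblast markers 5 were called higher in osteosarcoma against marrow (14.8% of all genes) and 1 in leiomyosarcoma against muscle (20.1%). Between the tumours 1 fibroblast marker was called higher in osteosarcoma and 1 lower, at a median of −0.26. Of the osteoblast markers 5 were higher in osteosarcoma than in leiomyosarcoma (3.31% of all genes). The summed signal of 8 neutrophil markers was 636 to 1847 in osteosarcoma and 367 to 1232 in leiomyosarcoma, against 355017 to 371280 in marrow, and that of 7 skeletal fibre markers was 64 to 50526 in osteosarcoma and −8 to 739 in leiomyosarcoma, against 276444 to 298901 in muscle. All 5 macrophage markers tested were called higher in both tumours against both normal tissues, with summed signals of 4528 to 9301 in osteosarcoma and 11211 to 20269 in leiomyosarcoma, against 523 to 790 in marrow and 294 to 1274 in muscle. The part of these cells in the differences of the collagen genes was not tested.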

How the data were processed

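The members and lists were chosen with earlier results of these data known. RNA of 12 tissue samples was measured, and groups and replicate numbers follow the labels. The deposited intensity of each probe is an average bead signal from which the authors had removed 1 background constant per array, per the file headers, and it is not normalised between arrays. A second deposited table holds the intensities without that subtraction, and the difference between the tables deviated from 1 constant per array by at most 0.00969. The authors also deposited a detection p-value for each intensity, by a method not given in the sources used here. RNA was extracted with Trizol and labelled as biotinylated cRNA with an Ambion kit, as the labels' protocols state. The scanner software was likewise unstated in those sources.

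The intensities were background-corrected, quantile-normalised and log2-transformed with neqc in limma 3.58.1 (R 4.3.3, offset 16), which used the detection p-values to infer the background. Probes with a detection p under 0.05 on at least 2 arrays were kept (21383), and the probe of highest mean stood for each gene. Symbols came from the platform annotation, with 18 probes of several symbols, 10378 not listed and 34885 of 1 symbol. The reference gene table (GRCm38.p6) held the symbol of 34807 of them.

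Group means were fitted in limma over all 12 arrays, with 3.634 prior and 8 residual degrees of freedom, two-sided tests, Benjamini-Hochberg adjustment over 11754 genes and a minimum log2 difference of 1. The method was tested on simulated data. All members are named, and from each list and contrast up to 3 called genes of largest difference, plus any called opposite to its list. Samples of the same replicate number did not deviate together (correlations of −0.0786 to 0.0819 over genes), so the numbers were not taken as pairs. Alternatives changed the background correction, scaling, filter, probe choice, samples fitted and blocks, and fitting each kept probe alone was added after the data were seen. Promoters are RefSeq's, and plots were made with matplotlib 3.10.9 under Python 3.11.15.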

Additional observations from a re-analysis of the deposited data

Results flagged for a closer look

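Lox in osteosarcoma 2 lay far from the other osteosarcomas: the gap to the nearest of them made up 0.985 of the range of the 4 tumours, above the critical value of 0.829 for 4 samples. Of 16 groups of 4 samples examined in this way it was the only one past that value, and chance flags about 1 in 20 such groups. Loxl1 was lowest in the same tumour, without passing.

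The difference of osteosarcoma from marrow and that of leiomyosarcoma from muscle were themselves different in limma for 5 of the 8 genes. The first was larger by 5.71 for Serpinh1, by 6.16 for P4ha2, by 3.08 for Plod2 and by 3.88 for Lox in log2 signal. For Plod3 the value was -1.55 on the brighter of its probes and 2.84 on the other. Over all genes, 19.5% were called larger and 20.8% smaller. P4ha2, Plod2 and Lox were not detected in marrow, so the size of their values depends on the background correction. The Serpinh1 value also varied, at 4.86 without background subtraction and 3.73 on its second probe, which was not detected in marrow. On the second P4ha2 probe the value was 4.18.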

How the results depend on the processing

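Of 1291 alternative values of single gene differences, 1203 stayed on their side of the threshold, 70 lost the call, 10 gained one and 8 turned round. The 1291 include fits without an array of a group outside the contrast, where the difference itself cannot change and only its p-value can. Of the 1203, 12 changed sign with no call on either side. The 8 were all Plod3. With the mean of its probes it was −0.23 in leiomyosarcoma against muscle, −0.15 in osteosarcoma against muscle, −0.57 in marrow against muscle and 0.64 for the difference of differences, and its other probe alone gave −2.70, −3.03, −3.17 and 2.84.

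For leiomyosarcoma against muscle, 5 genes were called, against 3 without the detection filter, 3 with the background block and 3 with a replicate block. For osteosarcoma against marrow it was 7, against 4 with the background block. Osteosarcoma against leiomyosarcoma had 3, against 1 with the background block and 1 within the arrays of higher background. Marrow against muscle had 5, against 3 with normexp at offset 50 and 3 on the unsubtracted values. In all 4 tumour against normal contrasts 4 were called, against 2 on the unsubtracted values, 2 without the filter, 1 with the background block and 1 with the replicate block. Leaving out single arrays gave 2 to 6 for leiomyosarcoma against muscle, 5 to 7 for osteosarcoma against marrow, 7 for leiomyosarcoma against marrow, 5 to 7 for osteosarcoma against muscle, 2 to 3 between the tumours, 3 to 5 for marrow against muscle, 1 to 5 for all 4 contrasts and 5 to 6 for the difference of differences. Where an arm then held 1 sample, it was assumed to vary like the other groups. On the unsubtracted values, osteosarcoma against marrow was 8.03 for Serpinh1, 4.99 for P4ha2, 3.21 for Plod2 and 4.38 for Lox, all called. Over all genes, calls ranged from 2163 to 4353 around 3273 for osteosarcoma against marrow, 2124 to 4296 around 3276 for leiomyosarcoma against marrow, 2584 to 5155 around 3884 for osteosarcoma against muscle, 516 to 1428 around 899 between the tumours, 343 to 885 around 584 for all 4 contrasts, 2794 to 5464 around 4136 for leiomyosarcoma against muscle, 3374 to 5348 around 4711 for marrow against muscle and 3592 to 4963 around 4733 for the difference of differences. The causes were not tested. Among the collagen enzyme genes, probes near background limit P4ha1, Plod1, Plod2 in muscle and every comparison with marrow except that of Plod3. The brighter Plod3 probe read 2321 and 1977 in marrow.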

Other observations

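Further collagen genes departed in osteosarcoma 2 from the mean of the other 3 osteosarcomas. Col3a1, the chain of type III collagen, was at 6.49, against 10.20, a difference of −3.72 in log2 signal, and P3h2, a prolyl 3-hydroxylase, was at 5.24, against 6.80. Loxl4, a further lysyl oxidase, was 1.02 above the mean in the same tumour. These genes were chosen after their values were seen.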
